A study of Drosophila melanogaster with 3 samples.

Results

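The cells described here were the non-neuronal cells of 3 single-cell libraries from fly brains that carried transcripts of alrm, the gene by which astrocyte-like glia are usually labelled in Drosophila. They were selected on measured counts of unique molecular identifiers (UMIs, each standing for one captured transcript). A cell had to hold at least 1000 UMIs with at most 20% of them mitochondrial, less than 0.15% of its UMIs from the 6 Kenyon cell markers prt, ey, Dop1R2, mub, sNPF and dac, fewer than 5 UMIs from the 4 neuronal genes nSyb, elav, brp and Syt1, and at least 2 alrm UMIs. Of the 15144 cells past the first pair of limits, 3698 met all of them and are called alrm cells below. The 2455 cells that met every limit except the one on alrm are called the other non-neuronal cells and served as the comparison within each library. Because alrm, the Kenyon cell markers and the neuronal genes chose the cells, their levels are given as a description, and every other gene was read in the same contrast and is described without a test.

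Astrocyte-like glia send fine branches into the synaptic neuropil of the fly brain, where they lie close to synapses. They clear glutamate and GABA from the extracellular space, convert glutamate to glutamine, inactivate monoamines, and are coupled to each other by gap junctions. Growth factor signalling through the FGF receptor Heartless shapes their branches during development.

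All flies carried the Mef2(P247)-gal4 driver and a UAS-nls.GFP reporter. The paper gives the flies of the drug-feeding experiment as females, and states no sex for the mutant and control flies of the single-cell pools. Brains without optic lobes were dissociated and sorted for GFP, a gate that aims at Kenyon cells and not at glia. The first library pooled day 0 flies homozygous for dSERT16, a P-element excision that removes the start of the serotonin transporter locus, with flies homozygous for the control allele dSERT4, which itself carries a small deletion there. The second pooled day 0 flies homozygous for the CRISPR deletion dSERT-TMKO with WT flies whose second chromosome came from w1118. The third pooled flies of day 4 to 6, namely dSERT-TMKO and WT together with WT flies fed citalopram (CIT) or vehicle (VEH) from eclosion. Each pool mixed strains marked by wild-derived chromosomes of the Drosophila Genetics Reference Panel (the third chromosome in the day 0 pools, a copy of both the second and the third in the CIT and VEH flies), and the cells were not assigned to strain, genotype or drug here. Each pool was 1 library, so genotype and drug were not compared, and age, genotype and library cannot be told apart.

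The libraries held 3299, 8849 and 2996 cells past the UMI and mitochondrial limits, with median depths of 3330.0, 6508 and 7146 UMIs. The alrm cells numbered 31 in the dSERT4/dSERT16 library, 3663 in the day 0 dSERT-TMKO/WT library and 4 in the day 4 to 6 library, so the day 0 dSERT-TMKO/WT library supplied 99.1% of them. Their median depths were 3285, 6364 and 2742 UMIs. Between 1 and 11 barcodes were shared by a pair of libraries, and no alrm cell had the barcode of an alrm cell in another library. Levels are given as counts per 1000000 UMIs, summed over the cells of a class (CPM), and all intervals are exact 95% intervals that cover counting error only.

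Among non-neuronal cells the alrm cells were 22.3% in the dSERT4/dSERT16 library (31 of 139, exact Clopper-Pearson interval 15.7 to 30.1%). They were 61.1% in the day 0 dSERT-TMKO/WT library (3663 of 5998, interval 59.8 to 62.3%) and 25.0% in the day 4 to 6 library (4 of 16, interval 7.27 to 52.4%). With every cell thinned to 1000 UMIs, the share of non-neuronal cells that kept an alrm UMI was 24.5% (17.6 to 32.5%), 54.7% (53.4 to 56.0%) and 37.5% (15.2 to 64.6%) in the same order. The day 0 dSERT-TMKO/WT library thus held the largest share of the 3, thinned or not, and genotype, strains and library cannot be told apart in it. Transcripts of alrm were also found outside the non-neuronal cells of this library. Of its 2594 cells at or over the Kenyon marker limit, which should lack alrm, 41.8% held at least 1 alrm UMI at a median depth of 7221 UMIs, and 9.79% did after thinning. The corresponding shares in the other 2 libraries were 2.21% and 0.269% before thinning and 1.02% and 0.0337% after it. A single alrm UMI was thus common in the largest library outside the alrm cells, and 39.6% of its other non-neuronal cells held exactly 1. A further 389 Kenyon-marker cells (15%) and 71 cells past the neuronal limit held 2 or more alrm UMIs there and were left out by the rule. Scrublet called 108 of these 389 cells doublets. How far free RNA or doublets gave the alrm UMIs of Kenyon-marker cells was not tested.

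The label was checked against 3 glial genes that the rule did not use. Gat (chromosome 4, 629691 to 635350) encodes the plasma membrane GABA transporter, Gs2 (X, 11422832 to 11430197) glutamine synthetase and Eaat1 (2L, 9333567 to 9341925) a high-affinity glutamate transporter (all positions on the BDGP6 assembly, dm6). alrm itself lies at 3R, 25381065 to 25382781, and overlaps Fur1 on the same strand, so reads of the 2 genes may have been assigned to either. The alrm level was 6400.2, 6212 and 6571 CPM in the alrm cells of the 3 libraries and 24.4, 70.2 and 61.0 CPM in the other non-neuronal cells, as the rule required. Gat stood at 3972, 4213 and 3489 CPM in the alrm cells against 393, 461 and 386 CPM in the others. Its level ratio was therefore close to 10 in each library: 10.1 (8.52 to 12.0), 9.14 (8.90 to 9.38) and 9.03 (5.15 to 16.4). Gs2 stood at 8163, 15970.0 and 13549 CPM against 1612, 4270.4 and 5386 CPM. Eaat1 stood at 4319, 5077 and 3732 CPM against 622, 779 and 854 CPM. Both were higher in the alrm cells of all 3 libraries, Gs2 by 2.52 to 5.06 times and Eaat1 by 4.37 to 6.95 times. Of the 3 listed pan-glial genes, repo and nrv2 did not separate the classes in the largest library. The glial fate regulator repo stood at 239.9 CPM in alrm cells and 248 CPM in the others. nrv2, a glial subunit of the sodium pump, stood at 12144 and 12855 CPM. The third gene, loco, was lower in the alrm cells, at 29.5 CPM against 57.8 CPM in the others.

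The summed levels hid a division among the alrm cells. For each cell the UMIs of Gat, Gs2 and Eaat1 were added and expressed as CPM of that cell. In the day 0 dSERT-TMKO/WT library the values fell into 2 ranges, one with most cells between 2000 and 10000 CPM and one with most cells over 30000 CPM. A limit of 15000 CPM (1.5% of a cell's UMIs), chosen after these values were seen, was used to describe them. Cells at or over it are called marker-high alrm cells and those under it marker-low alrm cells. Marker-high cells were 49.6% of the alrm cells (1817 of 3663, interval 48.0 to 51.2%), and marker-low cells were the remaining 1846. Only 135 cells (3.69%) lay within 10000 to 20000 CPM. Their median depths were 6703 and 6044 UMIs. The same limit put 12 of the 31 alrm cells of the dSERT4/dSERT16 library and 2 of the 4 of the day 4 to 6 library in the marker-high class, with 1 and 0 cells near the limit. Among the other non-neuronal cells it was passed by 0 of 108, 40 of 2335 (1.71%) and 1 of 12. A cut on a per-cell level defines a range and not a cell type, and the marker-low cells are given no name here.

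**Figure D1:**
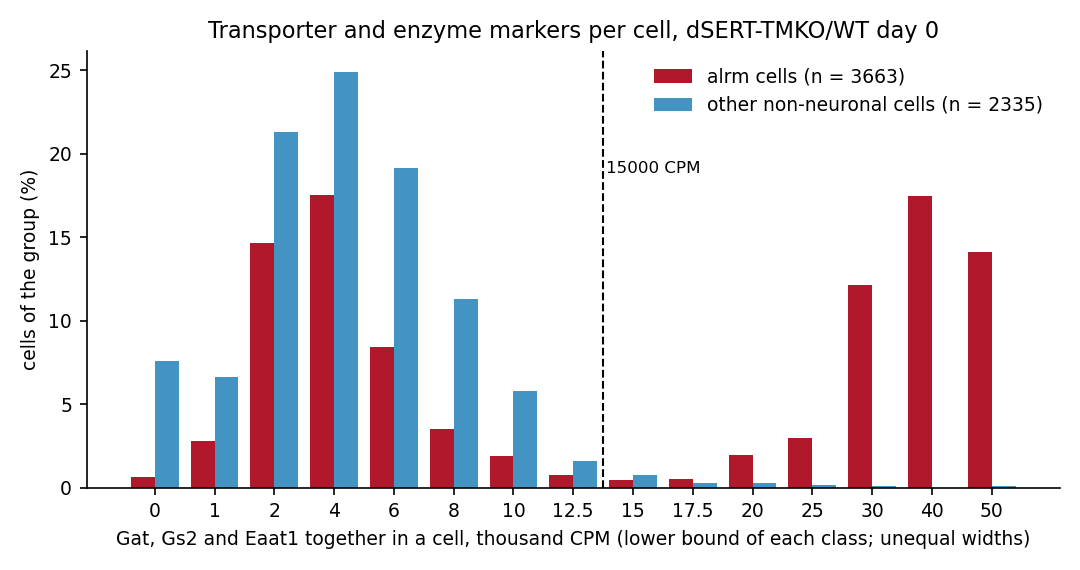
Summed level of Gat, Gs2 and Eaat1 per cell (CPM of the cell, classes of unequal width) in the day 0 dSERT-TMKO/WT library, as the percentage of alrm cells (red, n = 3663) and of other non-neuronal cells (blue, n = 2335) in each class. The alrm cells fall into 2 ranges on either side of 15000 CPM (dashed line), and the other non-neuronal cells lie almost entirely in the lower one.

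In the day 0 dSERT-TMKO/WT library the position of a cell in these ranges followed its alrm count. At the limit itself, the 415 cells with 2 alrm UMIs had 537 CPM of Gat, 4514 of Gs2 and 718 of Eaat1, and the 924 cells just outside it with 1 alrm UMI had 480, 4367 and 768 CPM. These cells on either side of the limit were thus nearly alike in the 3 genes. The marker-high share was 2.49% with 1 alrm UMI, 3.86% with 2, 7.81% with 3 to 5, 11.6% with 6 to 10, 26.7% with 11 to 20, 64.2% with 21 to 40 and 96.4% with more than 40. Gat rose along the same classes from 537 CPM at 2 alrm UMIs to 1163 at 11 to 20 and 7977 at more than 40. The gene e (ebony, which joins beta-alanine to dopamine and histamine) went from 30.0 to 230 and 1975 CPM. Obp44a, an abundant odorant-binding protein gene of glia, took another course, from 37964 CPM at 2 alrm UMIs up to 68821 at 11 to 20 and down to 13948 at more than 40. In the smaller day 0 library 11 of the 12 cells over 20 alrm UMIs were marker-high, and 1 of the 19 alrm cells at or under 20. Its finer classes showed no steady rise, with 1 of 6 cells marker-high at 6 to 10 UMIs and 0 of 5 at 11 to 20. Gat there stood at 1207 CPM at 2 alrm UMIs, 264 at 11 to 20 and 9552 at more than 40. At day 4 to 6 the cells with 55 and 5 alrm UMIs were marker-high and those with 10 and 11 were not.

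**Figure D2:**
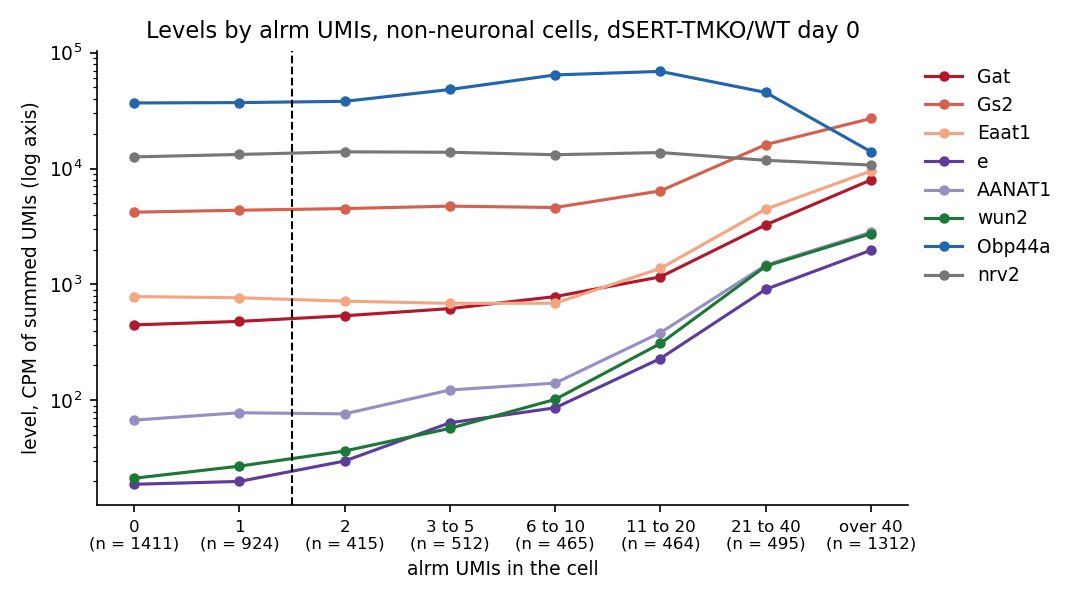
Levels of 8 genes (CPM of summed UMIs, log axis) in non-neuronal cells of the day 0 dSERT-TMKO/WT library, by the number of alrm UMIs in the cell, with the number of cells in each class. The dashed line marks the limit of 2 UMIs. Gat, Gs2, Eaat1, e, AANAT1 and wun2 are highest in the class over 40 alrm UMIs, nrv2 stays near 10000 CPM, and Obp44a peaks at 11 to 20 UMIs.

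The genes behind the label astrocyte-like glia were high in the marker-high cells, whereas the marker-low cells went against the label. In the marker-high cells the 4 markers alrm, Gat, Gs2 and Eaat1 together made up 61627, 54976 and 58713 CPM in the dSERT4/dSERT16, day 0 dSERT-TMKO/WT and day 4 to 6 libraries. They made up 6798, 6785 and 7427 CPM in the marker-low cells and 2652, 5580.3 and 6687 CPM in the other non-neuronal cells. The cut itself fixes much of this distance. AANAT1, wun2 and e were not part of the cut, but they are among the 20 genes with the highest ratios in alrm cells, given below. Genes with such ratios must be high in marker-high or marker-low cells. Their levels are therefore a description and no separate support for the label. AANAT1, which acetylates monoamines, stood at 2152, 2848 and 2925 CPM in the marker-high cells, 300.4, 64.4 and 0 CPM in the marker-low cells and 66.6, 72 and 203 CPM in the others. The 300.4 CPM came from 30 UMIs in 5 of the 19 marker-low cells of the dSERT4/dSERT16 library. Kenyon-marker cells also held AANAT1, at 149 and 241 CPM in the day 0 libraries. The lipid phosphate phosphatase gene wun2 stood at 1958, 2757 and 2507 CPM in the marker-high cells, and was at 0, 31.2 and 0 CPM in the marker-low cells. In the largest library at least 1 wun2 UMI was found in 98.6% of marker-high and 14.3% of marker-low cells, and after thinning in 89.6% and 3.20%. The thinned share for e was 76.2% and 2.87%, and for AANAT1 89.5% and 5.36%.

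The marker-low cells nevertheless held alrm at 1613 CPM (1591 to 1636) in the largest library, against 70.2 CPM in the other non-neuronal cells and 269 CPM in Kenyon-marker cells. Their per-cell level ran from 96.2 to 85234 CPM with a median of 1159 CPM, against a median of 8734 CPM in marker-high cells. In the smaller libraries their alrm level was 1772 CPM (177 UMIs in 19 cells) and 2785 CPM (21 UMIs in 2 cells). The ratio of alrm to other transcripts of marker-high cells was compared next. There were 51.7 alrm UMIs for each wun2 UMI in the marker-low cells, 3.84 in the marker-high cells, 4.38 in Kenyon-marker cells and 2.96 in the other non-neuronal cells. The ratio of alrm to Eaat1 was 3.93 in the marker-low cells, 1.11 in the marker-high and 1.08 in Kenyon-marker cells. The ratio of alrm to Gs2, in contrast, was 0.385, 0.390 and 0.352 in the same order. The ratio of alrm to Gat was 2.85, 1.38 and 1.29 in that order. Kenyon-marker cells thus had ratios near those of marker-high cells. Marker-low cells carried more alrm for each wun2, Eaat1 and Gat UMI but not for each Gs2 UMI. The rule selected cells on alrm, and at exactly 2 alrm UMIs the ratio to wun2 was 9.33. The cut also held down the sum of Gat, Gs2 and Eaat1 in marker-low cells. These ratios are therefore partly set by the choice of cells, and the source of the alrm UMIs was not tested.

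Doublets and other cell types were measured beside these classes. Scrublet called 117 of the 3663 alrm cells (3.19%) and 4 of the 2335 others (0.171%) in the largest library, and none of these cells in the other libraries. Of the 117, 84 were marker-high and 33 marker-low. Without them the Gat, Gs2 and Eaat1 ratios were 9.18, 3.76 and 6.56, close to those with them. In that library the hemocyte list summed to 0.123 CPM in alrm cells with Hml, srp, eater and He at 0, the muscle list to 0.982 CPM with Act57B, up and Mlc1 at 0, the tracheal list to 0.246 CPM with trh at 0, and the photoreceptor list to 0.205 CPM with Arr1 and Arr2 at 0. Of the fat body markers Fbp1 and to were at 0 and Lsp2 at 0.0409 CPM, while apolpp, a lipoprotein gene that glia also express, stood at 851 CPM. The Kenyon cell list summed to 226 CPM and the neuronal list to 87.4 CPM, against 311 and 69.7 CPM in the other non-neuronal cells, values that the rule itself held down. In the dSERT4/dSERT16 library the muscle list held 1 UMI in alrm cells, and the hemocyte, tracheal and photoreceptor lists none. Mef2, the gene whose enhancer drives the sorted GFP, stood at 94.3 CPM in alrm cells, 155 CPM in the others and 1200.2 CPM in Kenyon-marker cells. RNA quality and depth differed between the alrm classes in the dSERT4/dSERT16 library, where the median mitochondrial share was 7.19% in marker-high and 3.04% in marker-low cells and the median depth 3086 and 4789 UMIs. The mitochondrial shares were 4.18% and 4.25% in the largest library. The part of these measures in the results was not tested.

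Across all genes with a mean of at least 50 CPM over both classes, the difference between alrm cells and other non-neuronal cells was counted past 2-fold. In the dSERT4/dSERT16 library 185 of 2131 genes were higher (8.68%) and 348 lower (16.3%), counts that rest on 31 cells, in which a gene near the level limit has few UMIs, and that cannot be set beside those of the larger library. In the day 0 dSERT-TMKO/WT library 101 of 2025 were higher (4.99%) and 169 lower (8.35%), with a median ratio over all of them of 0.923. The day 4 to 6 library had too few alrm cells for such a count. Of the 1821 genes measured in both, 69 were higher in both, which was 44.5% of the 155 in the first library and 75.8% of the 91 in the second. For lower genes 90 were shared, 37.7% of 239 and 61.6% of 146. Restricted to marker-high cells, the largest library had 184 of 1994 genes higher (9.23%) and 433 lower (21.7%), and restricted to marker-low cells 28 of 2034 higher (1.38%) and 67 lower (3.29%). Marker-high cells of the dSERT4/dSERT16 library gave 353 of 2091 higher (16.9%) and 543 lower (26.0%), and the marker-low cells 191 of 2159 (8.85%) and 341 (15.8%).

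The 20 genes with the highest ratio that passed 2-fold in both day 0 libraries were alrm, CG8861, dpn, wun2, e, Pde6, ringer, CG34367, Tre1, AANAT1, CG42450, CG30015, flw, CG32982, OtopLc, bbc, CG15203, pros, Gat and Efa6. All 20 stood at least 16.6 times higher in marker-high cells than in the other non-neuronal cells of the largest library. The genes were chosen by their ratio in the alrm cells of this library, which include the marker-high cells. In addition alrm chose the cells and Gat is part of the cut, so this height was largely fixed by the choice. In marker-low cells 19 of the 20, all but alrm, lay between 0.732 and 2.38 times the level of the others. A pair of transcription factors was among them. dpn (deadpan), a bHLH repressor best known from neural stem cells, stood at 260.0 CPM in marker-high cells, 2.85 in marker-low cells and 2.05 in the others, and had at least 1 UMI in 65.6% of marker-high and 1.46% of marker-low cells. pros (prospero), a homeodomain factor, stood at 747, 33.9 and 36.0 CPM, and at 5689 CPM in Kenyon-marker cells. The smaller day 0 library had pros at 1088 CPM in marker-high cells (45 UMIs) and 122 in the others, and dpn had 7 UMIs in marker-high cells and none elsewhere among non-neuronal cells.

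Several of the remaining genes act on membranes, second messengers or the cytoskeleton. wun2 was 116 times higher in marker-high cells than in the others of the largest library (104 to 130.4), and at least 294 times higher in the dSERT4/dSERT16 library, where the others held none and the limit was set at 3 UMIs over the group. Pde6, a cyclic GMP phosphodiesterase, stood at 415 CPM against 5.70 in the largest library and 919 against 17.8 in the smaller. ringer, a microtubule-associated protein gene, stood at 800.2 CPM against 11.1, and 459 against 24.4. These 3 genes stood higher in the marker-high cells of both day 0 libraries. They were chosen for passing 2-fold in the alrm cells of both, so this agreement was largely fixed by the choice. bbc, an enzyme of phospholipid synthesis, stood at 5719 CPM against 261 and at 3819.9 against 215. flw, a catalytic subunit of protein phosphatase 1, stood at 3752 CPM against 135 and at 6238 against 155. OtopLc, of the otopetrin family of proton channels, stood at 779 CPM against 34.7 and at 1039.6 against 11.1. Among the genes of this paragraph Tre1, a G protein-coupled receptor known from germ cell migration, had the thinnest support. It stood at 266 CPM against 5.62 in the largest library. In the smaller it had 10 against 13 UMIs, a ratio of 8.37 (3.29 to 20.7).

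**Figure D3:**
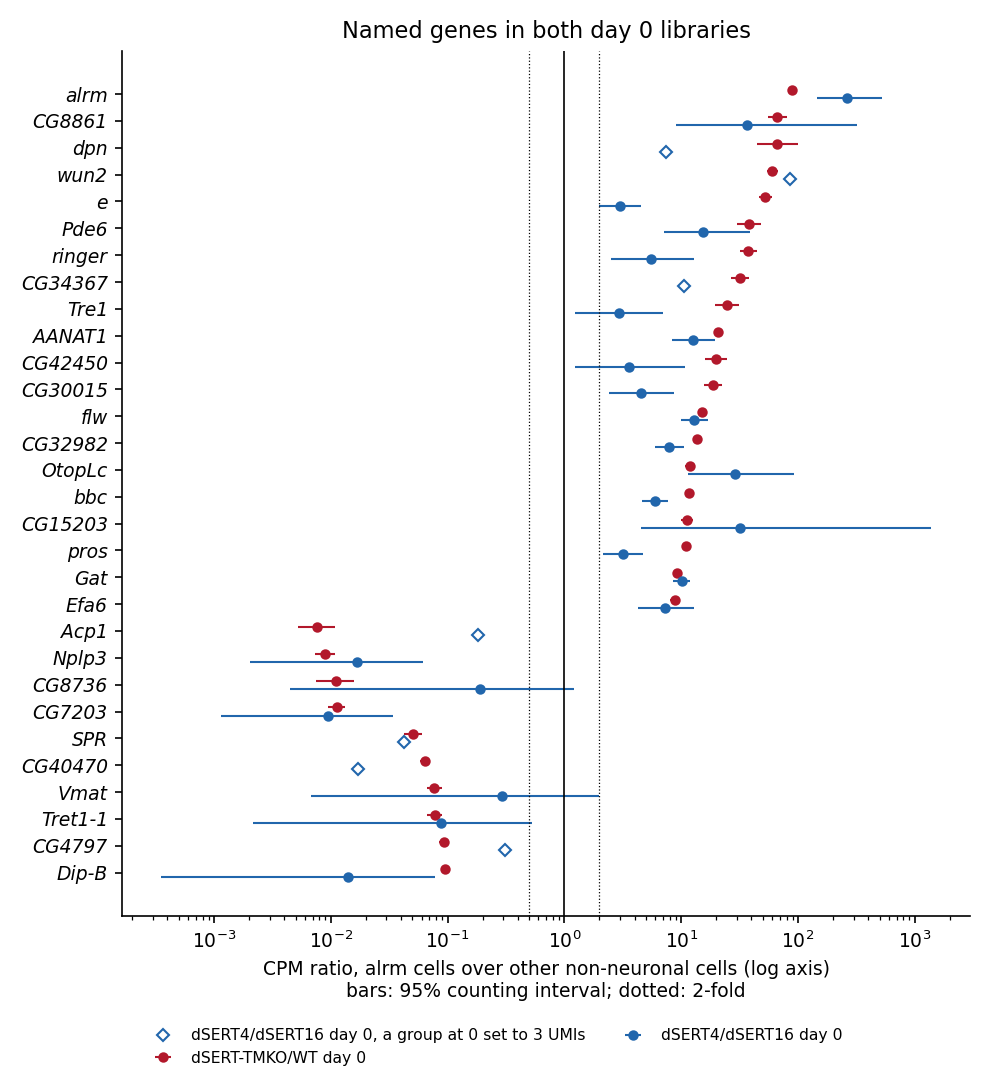
Level ratio of alrm cells over other non-neuronal cells (log axis) for the 20 highest and 10 lowest genes past 2-fold in both day 0 libraries, with 95% counting intervals. Red is the dSERT-TMKO/WT library and blue the dSERT4/dSERT16 library, with open diamonds where one class held no UMI and was set to 3. The points lie on the same side of 1 in both libraries, since the choice of genes required it, and the intervals are wider in the library with 31 alrm cells.

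The 10 lowest genes by the same rule were Acp1, Nplp3, CG8736, CG7203, SPR, CG40470, Vmat, Tret1-1, CG4797 and Dip-B. All 10 were lower in both alrm classes than in the other non-neuronal cells of either day 0 library, although the 11 Vmat UMIs in the others of the smaller library are too few to show a difference from 0. For several of them a few cells carried the level of the others, and the typical cell held none: in the largest library the median alrm cell and the median other cell were at 0 for all 10. Nplp3, a neuropeptide-like precursor, stood at 3.99 CPM in marker-high cells, 4.70 in marker-low cells and 485 in the other non-neuronal cells of the largest library, and at 24.2, 10.0 and 842 CPM in the dSERT4/dSERT16 library. Its 485 CPM came from 6384 UMIs, but only 7 of the 2335 other cells held 2 or more, and the share with any UMI was 2.53%, against 2.59% of alrm cells. Acp1 and CG8736 were likewise held with 2 or more UMIs by 4 and 5 of the other cells, and with any UMI by 0.857% and 1.07% of them against 0.874% and 0.792% of alrm cells. CG7203 stood at 5.27, 6.96 and 542 CPM in the first and at 24.2, 10.0 and 1499 CPM in the second, with 2 or more UMIs in 35 of the other cells of the largest library. SPR, the sex peptide receptor, stood at 0.958, 10.6 and 110.4 CPM, with 2 or more UMIs in 64 (2.74%) of those others, and held no UMI in the 31 alrm cells against 224 in the 108 others. Tret1-1, a trehalose transporter of the blood-brain barrier, stood at 7.51, 9.82 and 111 CPM. The widest spread was that of Dip-B, found in 17.7% of the others and 4.40% of alrm cells. The other non-neuronal cells therefore included small numbers of cells with high levels of these genes.

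Genes of transmitter handling came next, and each count of listed genes is to be read against the shares over all genes, 4.99% higher and 8.35% lower in the largest library and 8.68% and 16.3% in the dSERT4/dSERT16 library. Of 7 listed genes of glutamate uptake and recycling, 3 were measured in the largest library, of which Eaat1 and Gs2 were higher and none lower, with a median ratio of 3.74 against 0.923 over all genes. The same pair was higher in the dSERT4/dSERT16 library among 4 measured genes and gb was lower. In marker-high cells Eaat1 stood at 9520.0 CPM and Gs2 at 27181 CPM, against 410.4 and 4195 in marker-low cells. The ratio of Eaat1 in marker-low cells to the others (779 CPM) was 0.527 (0.509 to 0.545), and it was 1.08 in the dSERT4/dSERT16 library. Eaat1 is part of the sum that the cut held down in marker-low cells, so this ratio is partly set by the cut. Eaat2, the second glutamate and aspartate transporter, ran the other way, at 18.1 CPM in marker-high cells, 189 in marker-low cells and 181 in the others. The dSERT4/dSERT16 library gave Eaat2 as 0 UMIs in 12 marker-high cells and 20 UMIs (200.2 CPM) in 19 marker-low cells. Of the 3 listed GABA genes only Gat was higher, at 7685 CPM in marker-high cells, 566 in marker-low cells and 461 in the others. Gabat, the GABA transaminase that breaks GABA down, stood at 533, 675 and 891 CPM and did not pass 2-fold.

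Of 13 listed gene names for monoamine handling, 11 are in the files. In each day 0 library 4 genes were measured, of which 2 were higher (4.99% and 8.68% of all genes) and 2 lower (8.35% and 16.3% of all genes). e and AANAT1 were the higher pair. In the largest library e stood at 1959.9 CPM in marker-high cells, 25.7 in marker-low cells and 19.4 in the others. In the smaller day 0 library e stood at 1209 CPM in marker-high cells (50 UMIs), had no UMI in marker-low cells and reached 118 CPM in the others (53 UMIs), a ratio of 10.3 (6.84 to 15.4). AANAT1 was common in marker-high cells with or without e. Of the 1684 marker-high cells of the largest library with 2 or more e UMIs, 1666 (98.9%) had 2 or more of AANAT1. Among those with fewer e UMIs 79.7% did (106 cells with and 27 without). The latter cells were shallower, with a median depth of 2477 against 6900.0 UMIs, and a link between the genes was not tested. Balat, a transporter for the beta-alanine that Ebony uses, lay under the level limit but stood at 42.9 CPM in marker-high cells, 39.7 in marker-low cells and 3.8 in the others. The summed Balat level was thus raised in both alrm classes of the largest library (ratios of 11.3 and 10.4). It came from few cells, since 6.03% of the alrm cells held any Balat UMI and 2.89% held 2 or more. Balat was at 0 in all 31 alrm cells of the dSERT4/dSERT16 library, where 3 UMIs fell in the others. Ddc, which makes dopamine and serotonin, stood at 32.3, 114 and 615 CPM in the largest library. Ddc had 1 UMI in alrm cells of the dSERT4/dSERT16 library against 2757 in the others. Vmat, the vesicular monoamine transporter, stood at 2.72, 15.4 and 115 CPM. SerT, the serotonin transporter gene altered in these flies, gave 52 UMIs in the 3663 alrm cells (2.13 CPM) and 4 UMIs in the others. It was seen in 2.04% of marker-high cells (37 of 1817), in 0.550% after thinning, in 0.116% of Kenyon-marker cells, and in none of the alrm cells of the other libraries.

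The receptors that astrocytes are described to use were low in the marker-high cells. Of 15 listed receptors 5 were measured in the largest library, with none higher and 3 lower in alrm cells (wtrw, Octalpha2R and 5-HT7; 8.35% of all genes), and in the dSERT4/dSERT16 library 5 were measured with none higher and 4 lower, the same 3 and Octbeta2R (16.3% of all genes). wtrw (water witch), a TRP channel through which larval astrocytes respond to octopamine and tyramine, stood at 55.8 CPM in marker-high cells, 401 in marker-low cells and 1169 in the others. It had at least 1 UMI in 15.2% of marker-high and 37.6% of marker-low cells. Dop1R1, a dopamine receptor, stood at 143 CPM in marker-high cells, 2091 in marker-low cells and 1990.4 in the others, so that summed over alrm cells it did not pass 2-fold. Dop1R1 in the dSERT4/dSERT16 library had 0 UMIs in marker-high cells, 174 in marker-low cells (1742 CPM) and 891 in the others (1979 CPM). The serotonin receptor gene 5-HT7 stood at 28.1, 54.5 and 109 CPM in the largest library. TyrR, Oct-TyrR, 5-HT2A and 5-HT2B each stood under 0.3 CPM in both alrm classes of that library.

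**Figure D4:**
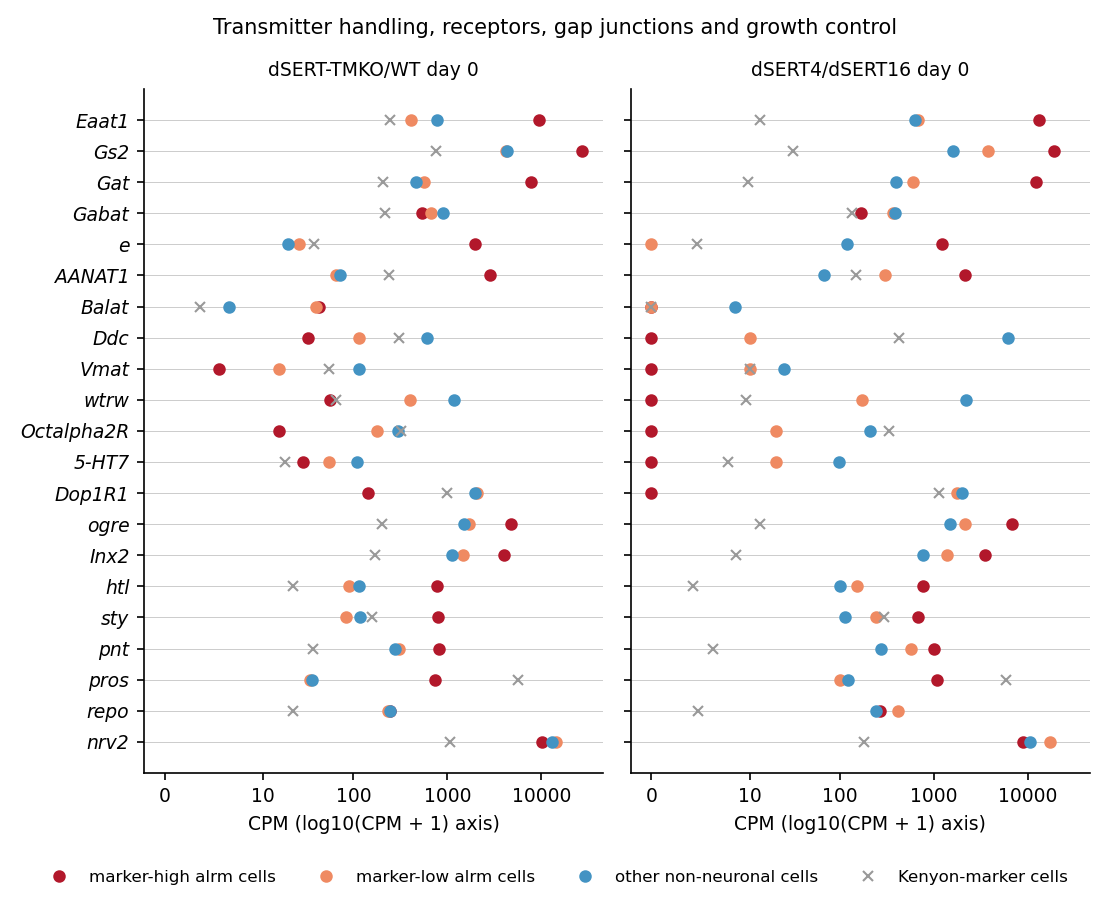
Levels of 21 genes for transmitter handling, receptors, gap junctions, growth control and glial identity in the 2 day 0 libraries (CPM on a log10(CPM + 1) axis), for marker-high alrm cells (red), marker-low alrm cells (orange), other non-neuronal cells (blue) and Kenyon-marker cells (grey crosses). Marker-high cells stand apart to the right for Eaat1, Gs2, Gat, e and AANAT1 and to the left for Dop1R1, and marker-low cells lie near the other non-neuronal cells for Eaat1, Gat, Dop1R1 and pros.

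Gap junction genes were graded across the classes. Of 4 listed innexins 3 were measured, and ogre and Inx2 were higher in both day 0 libraries, where 4.99% and 8.68% of all genes were. ogre stood at 4792 CPM in marker-high cells, 1707 in marker-low cells and 1489.8 in the others of the largest library, and at 6697, 2163 and 1475 CPM in the smaller. Inx2 stood at 4044, 1453 and 1134 CPM, and at 3481, 1362 and 766 CPM. Inx3 differed from them, at 102 CPM in marker-high cells and 872 and 764 CPM in the other classes of the largest library. FGF and growth control genes had 3 of 5 measured genes higher and none lower in each day 0 library, namely htl, sty and pnt, against the same 4.99% and 8.68% of all genes. htl, the FGF receptor Heartless, stood at 774 CPM in marker-high cells of either day 0 library, against 115 and 99.9 CPM in the others. sty (sprouty), an inhibitor of receptor tyrosine kinase signalling, stood at 807 against 117 CPM and 677 against 113 CPM. pnt, an ETS factor downstream of that signalling, stood at 824 against 280.2 CPM and 991 against 273 CPM. In marker-low cells of the largest library htl and sty stood at 89.5 and 82.1 CPM, below the others. Of the listed glial transcription factors pnt and pros were higher among 5 measured in the largest library and among 6 in the smaller, where SoxN was lower; the shares over all genes were 4.99% and 8.68% higher.

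For metabolic genes the counts were small. Of 8 measured genes of sugar and lactate metabolism in the largest library, none was higher past 2-fold and Tret1-1 was lower, with a median ratio of 1.12, which is close to the shares over all genes (4.99% and 8.35%). Treh, the trehalase that splits the blood sugar of flies, stood at 1073 CPM in marker-high cells, 496 in marker-low cells and 449 in the others, and Hex-A at 1301, 549 and 805 CPM. Both passed 2-fold in the dSERT4/dSERT16 library, with ratios of 3.44 (2.68 to 4.41) and 2.18 (1.75 to 2.71) over all alrm cells. Of 10 measured lipid genes none was higher in either library and 3 were lower, GLaz, fabp and LpR2 in the largest and apolpp, fabp and LpR2 in the smaller, where 8.35% and 16.3% of all genes were lower. Single lipid genes were far apart between the 2 alrm classes and others were not. apolpp stood at 70.7 CPM in marker-high cells, 1670.3 in marker-low cells and 740.2 in the others, and FASN1, fatty acid synthase, at 29.0, 603 and 182 CPM. Npc2a, a sterol carrier gene, stood at 174, 1258 and 1261 CPM. In contrast fabp, a fatty acid binding protein gene, stood at 214, 337 and 852 CPM, Lsd-2, a lipid droplet protein gene, at 505, 964 and 596 CPM, and bmm, the lipase Brummer, at 15, 11.6 and 13.0 CPM. Marker-high cells of the dSERT4/dSERT16 library held 1 UMI of apolpp and none of FASN1, and marker-low cells 1241 and 921 CPM.

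Of the markers listed for other glia, e, the one listed for ebony glia, was high in the marker-high class as given above (1959.9 CPM), and several of the rest were low in it. The blood-brain barrier receptor moody stood at 22.7 CPM in marker-high cells, 351 in marker-low cells and 223 in the others. Mdr65 and Gli, listed with moody for subperineurial glia, were lower in marker-low cells than in the others. Mdr65 stood at 1.76, 3.44 and 37.2 CPM and Gli at 0.0799, 0.252 and 0.836 CPM. The cortex glia genes zyd and wrapper stood at 190.3 and 21.6 CPM in marker-high cells against 1654 and 233 CPM in the others. In marker-low cells zyd was at 1683 CPM and wrapper at 65.7 CPM. hoe1, of the same list, stood at 311, 1587 and 1379.7 CPM. Cyp4g15, a cytochrome P450 also listed for cortex glia, ran against them, at 1077 CPM in marker-high cells, 361 in marker-low cells and 331 in the others. The collagen gene Col4a1 stood at 154, 1324 and 1698 CPM. Of the listed ion transport genes over the level limit none was higher in alrm cells past 2-fold. In each day 0 library 2 were lower, where 8.35% and 16.3% of all genes were. They were nrv3 and Irk3 among 6 measured in the largest, and nrv1 and Irk1 among 8 in the smaller. The listed chloride cotransporter gene kcc lay under that limit, at 43.8 CPM in alrm cells and 13.4 in the others of the largest library. In the dSERT4/dSERT16 library it stood at 70.8 and 13.3 CPM, so it was past 2-fold higher in both. Marker-high cells of the largest library held kcc at 74.8 CPM. Ncc69, another chloride cotransporter gene, stood there at 9.74 CPM in marker-high cells and 174 CPM in the others. Among engulfment genes none passed 2-fold in either day 0 library (0 of 4 and 0 of 3), which with 4.99% and 8.68% of all genes higher and 8.35% and 16.3% lower is no result about them, and drpr, the engulfment receptor Draper, stood at 114, 203 and 215 CPM. The same holds for the clock genes of the largest library (0 of 5), and tim was higher in the dSERT4/dSERT16 library, at 92.0 against 35.5 CPM (13 and 16 UMIs). Hsp26 and Hsp83 were lower in alrm cells of the dSERT4/dSERT16 library, Hsp83 at 248 against 1173 CPM, and neither passed 2-fold in the other.

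The marker-low cells had leading genes of their own. The 15 genes with the highest ratio of marker-low to other non-neuronal cells in the largest library were taken after the values were seen, and are described only. alrm came first by construction. scro (scarecrow), an NK2-type homeobox factor, stood at 531 CPM in marker-low cells, 64.9 in the others and 16.4 in marker-high cells, and had at least 1 UMI in 65.9% of marker-low and 3.30% of marker-high cells. The dSERT4/dSERT16 library did not choose the gene, and there scro had 54 UMIs in the 19 marker-low cells (541 CPM), 22 in the 108 others (48.9 CPM) and none in the 12 marker-high cells. ome, a dipeptidyl peptidase gene, stood at 285 CPM in marker-low and 33.6 in marker-high cells, 7.12 and 0.840 times the level of the others. It stood at 310.4, 13.3 and 169 CPM in marker-low, other and marker-high cells of the smaller library. Men-b, a malic enzyme, was raised in both alrm classes, at 1037 CPM in marker-low and 659 in marker-high cells against 175 CPM, and at 1752 and 967 against 142 CPM in the smaller library. scro, ome and Men-b therefore stood higher in marker-low cells of both day 0 libraries, although reads of ome could not be told from those of several small genes that it overlaps.

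Others of the 15 were secreted or developmental genes. cv-2 (crossveinless 2), which binds BMP ligands, stood at 589 CPM in marker-low cells, 161 in the others and 24.5 in marker-high cells, and at 1031, 355 and 0 CPM in the dSERT4/dSERT16 library. jbug, a filamin gene, stood at 142, 32.3 and 7.51 CPM, and Inos, inositol phosphate synthase, at 199, 76.9 and 22.1 CPM. egr, the TNF ligand Eiger, stood at 124, 41.8 and 7.75 CPM. Past 2-fold of the others in marker-low cells of the smaller library, with an interval above 1, were alrm, scro, ome, Men-b, jbug, CG13458, cv-2, Elal, Inos and CG31869. Support in that library was thin for CG7509, Stacl, spok and egr, with 7, 2, 0 and 9 UMIs in marker-low cells, and FASN1 was near the others there, at 921 against 817 CPM. Obp44a stood at 63891 CPM in marker-low cells, 36881 in the others and 9686 in marker-high cells of the largest library, with per-cell medians of 46769, 18544 and 4644 CPM. It took 50369, 51059.9 and 5609 CPM in the smaller library and 46552, 6484 and 1045 CPM in the day 4 to 6 library. Obp44a was thus low in marker-high cells of both day 0 libraries. In the largest library it was higher in marker-low cells than in the others by summed level and by per-cell median. The summed levels of these classes were near each other in the smaller day 0 library. Its per-cell medians, however, were 45361 CPM in marker-low cells and 15807 CPM in the others, of which the highest cell stood at 359987 CPM. The alrm classes of the day 4 to 6 library held 2 cells each, with 5 UMIs in marker-high and 351 in marker-low cells. A single marker-low cell there stood at 121228 CPM, so these cells are too few to show an order.

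**Figure D5:**
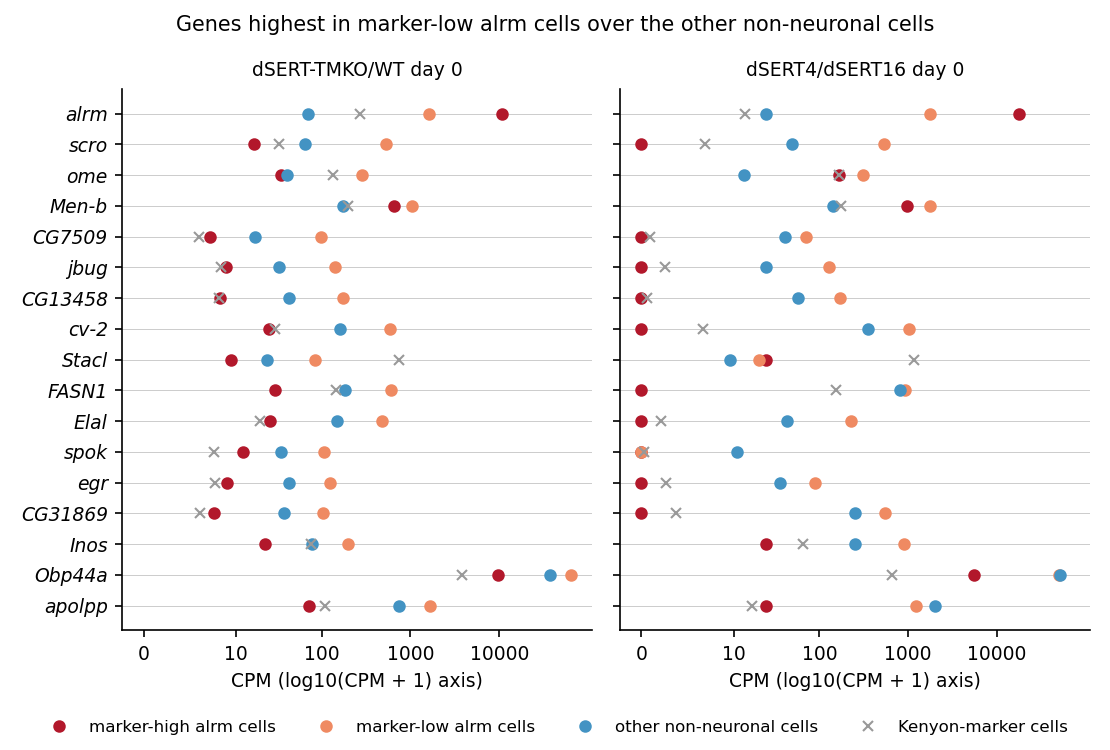
Levels of the 15 genes highest in marker-low alrm cells over other non-neuronal cells of the day 0 dSERT-TMKO/WT library, with Obp44a and apolpp, in both day 0 libraries (CPM on a log10(CPM + 1) axis; colours for marker-high alrm cells in red, marker-low alrm cells in orange, other non-neuronal cells in blue and Kenyon-marker cells as grey crosses). The genes were chosen in the left panel, where orange lies to the right of blue, and apart from alrm, ome and Men-b the marker-high cells lie near or left of the other non-neuronal cells.

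Within the marker-high class the cells were not uniform. Gat ran from 0 to 46914 CPM per cell, with quartiles of 4508, 6610.5 and 9399 CPM, and wun2 had quartiles of 1985, 2653 and 3421 CPM. dpr10 and Act79B, singled out after their values were seen and outside the rule for named genes, were patchy. dpr10, an immunoglobulin-domain gene of the Dpr family, stood at 388 CPM in marker-high cells, 2.28 in the others and 290.2 in Kenyon-marker cells of the largest library, yet only 24.8% of marker-high cells held it (16.6% after thinning). Act79B, an actin gene best known from muscle, stood at 1748 CPM and was found in 37.4% of them (27.6% after thinning), with a highest cell at 29010.0 CPM. With 2 UMIs required, 134 of 1817 marker-high cells held both genes, 272 dpr10 alone and 412 Act79B alone. Act79B was thus found in 33.0% of cells with dpr10 and 29.2% of cells without it. Among the 31 alrm cells of the dSERT4/dSERT16 library dpr10 had 1 UMI and Act79B 2 UMIs. Since the strains of the pool were not told apart, whether these cells came from particular strains was not tested.

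The 4 alrm cells of the day 4 to 6 library are given one by one. Their alrm UMIs were 10, 55, 11 and 5, of totals of 5684, 3628, 1856 and 1158. Gat gave 3, 36, 1 and 3 UMIs, Gs2 29, 106, 2 and 30, and Eaat1 0, 34, 0 and 12. The cells with 55 and 5 alrm UMIs passed the marker limit and were the only ones with wun2 (8 and 4 UMIs) and AANAT1 (11 and 3 UMIs), and e was found in the cell with 55 alrm UMIs alone (4 UMIs). All 4 cells thus held Gat and Gs2, and Eaat1, wun2 and AANAT1 were found in the 2 marker-high cells alone. Their number gives no basis for a comparison with day 0.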

How the data were processed

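GFP-sorted cells from dissociated central brains were profiled in 3 droplet libraries. The authors made the deposited matrices of raw UMI counts per gene and cell with Cell Ranger 7.0.0 on a dm6 reference. No normalized value was used. The authors' 4 deposited tables of fold changes and p-values per Kenyon cell cluster were left out, and no map from cells to strains was used here.

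Cells, limits, gene lists and the rule itself were chosen with earlier results of these data known. UMIs were summed over the cells of a class in each library and divided by the class total (CPM per 1000000 UMIs). Genes with a mean of both CPMs of at least 50 were counted past 2-fold in libraries with at least 20 alrm cells. Named genes were the markers, the listed genes with at least 20 UMIs in the alrm cells of a library, and the 20 highest and 10 lowest genes by ratio in the library with most alrm cells that passed 2-fold the same way in both day 0 libraries; listed genes below that are given as near absence, and the marker-low leaders, Obp44a, dpr10 and Act79B were added after their values were seen. No gene qualified for an age comparison, since the day 4 to 6 library held 4 alrm cells. Intervals were exact at 95%: Poisson for levels, Clopper-Pearson for shares, conditional binomial for ratios. Classes without a UMI were set to 3 UMIs for a bound. With 1 library per pool no test was possible. Gene positions came from the BDGP6 annotation and matched 99.5% of 17824 features; reads were not reassigned among overlapping genes. Python 3.11.15, numpy 2.4.6, scipy 1.17.1, pandas 2.3.3 and scanpy 1.11.5 (with its Scrublet caller) were used, and the counting scripts were checked on simulated data. Alternatives varied the alrm and depth limits, scaling, weighting, level limit, fold and doublet removal.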

Additional observations from a re-analysis of the deposited data

Results flagged for a closer look

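Ace, the gene for acetylcholinesterase, was the only gene past 2-fold in opposite directions in the alrm cells of the 2 day 0 libraries, and the difference between the libraries was not tested. In the dSERT4/dSERT16 library its level in alrm cells was 0.116 times that in the other non-neuronal cells (0.0310 to 0.305), at 28.3 against 244 CPM, from 4 and 110 UMIs. In the dSERT-TMKO/WT library the ratio was 2.33 (2.20 to 2.47), at 254 against 109 CPM. Within the alrm cells of that library Ace stood at 438 CPM in marker-high cells and 60.9 CPM in marker-low cells. The same classes of the dSERT4/dSERT16 library stood at 72.5 CPM (3 UMIs in 12 cells) and 10.0 CPM (1 UMI in 19 cells). Marker-high cells thus stood above marker-low cells in the dSERT-TMKO/WT library. In the dSERT4/dSERT16 library the intervals of the 2 classes overlapped, and 3 and 1 UMIs are too few to show an order. The level in the other non-neuronal cells was higher in the library with the lower ratio.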

How the results depend on the processing

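Of 151 alternative values, 84 kept their direction and stayed within the spread used here, 64 moved beyond it and 3 changed direction. Some of the 84 could not move. Doublet removal, for example, took no alrm cell or other non-neuronal cell from the dSERT4/dSERT16 and day 4 to 6 libraries. The 3 changes of direction all came with marker-low alrm cells alone. Their ratio to the other non-neuronal cells was 0.982 for Gs2 and 0.527 for Eaat1 in the day 0 dSERT-TMKO/WT library. It was 0.763 for Gs2 in the day 4 to 6 library. Eaat1 had no UMI in the 2 marker-low cells of the day 4 to 6 library, against 854 CPM in the others, and gave no ratio. The split into marker-high and marker-low cells was chosen after seeing the data. Marker-low cells alone gave ratios of 1.23 for Gat in the day 0 dSERT-TMKO/WT library, 1.53, 2.33 and 1.08 for Gat, Gs2 and Eaat1 in the dSERT4/dSERT16 library and 1.37 for Gat in the day 4 to 6 library. Marker-high cells alone gave 16.7, 6.36 and 12.2 in the day 0 dSERT-TMKO/WT library, 30.8, 11.7 and 21.1 in the dSERT4/dSERT16 library and 21.1, 5.28 and 11.3 in the day 4 to 6 library. They numbered 1817, 12 and 2, or 30.3% and 8.63% of non-neuronal cells at day 0. The genes past 2-fold were then 184 higher and 433 lower in the day 0 dSERT-TMKO/WT library (28 and 67 for marker-low cells) and 353 and 543 in the dSERT4/dSERT16 library.

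A minimum of 1 alrm UMI moved the share of alrm cells to 76.5% and 30.2% in the day 0 dSERT-TMKO/WT and dSERT4/dSERT16 libraries and their number to 7 at day 4 to 6. In the day 0 dSERT-TMKO/WT library the share was 54.2% with 3 UMIs, 62.9% with 2000 UMIs per cell and 54.7% after thinning. A minimum of 2000 UMIs left 2 alrm cells at day 4 to 6. For Gat, Gs2 and Eaat1 in the day 0 dSERT-TMKO/WT library, ratios were 9.77, 4.0 and 7.23 with at least 3 alrm UMIs, 9.90, 4.05 and 7.06 with median-ratio scaling and 8.0, 3.56 and 5.95 with each cell weighted equally. A reference without any alrm UMI gave 9.41 for Gat and 3.8 for Gs2, and a reference limited to the depth range of the alrm cells 3.66 for Gs2 and 6.67 for Eaat1. Equal weights gave 13.2, 6.15 and 9.36 in the dSERT4/dSERT16 library, and a reference without any alrm UMI 5.66 for Gs2. The depth-limited reference gave 1.97 for Gs2 at day 4 to 6. Counts of genes followed the level limit and the fold by construction. They were 355 higher and 696 lower at 20 CPM, 113 and 192 at 100 CPM, 467 and 875 without a limit, and 50 and 146 at 4-fold in the dSERT4/dSERT16 library. In the day 0 dSERT-TMKO/WT library they were 256 lower at 20 CPM and 102 lower at 100 CPM, 444 higher and 1305 lower without a limit, and 39 and 38 at 4-fold. No paired analysis was possible because each pool is 1 library. The dSERT4/dSERT16 and day 4 to 6 libraries held few alrm cells, so their single-gene values rest on few UMIs.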
